A study of Drosophila melanogaster with 10 samples.

Results

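The 5 samples described here are the bulk RNA-seq libraries of Kenyon cells (KCs) from control flies, chosen by their genotype label from the 10 samples of the series. KCs form the mushroom body, an insect brain center for associative memory. They receive cholinergic olfactory input on their dendrites, and dopamine neurons modulate their output synapses through receptors that act on cAMP. All 5 samples were homozygous for dSERT4, a line matched in genetic background to the SERT mutant of the study and carrying functional SERT, and all carried Mef2(P247)-gal4 driving the nuclear reporter UAS-nls.GFP. The driver line does not sample the KC classes evenly, with alpha'/beta' cells the least represented, so the levels below are means over KC classes and over several brains pooled per sample. The flies were females on day 0, the day of eclosion. Optic lobes were removed before the central brains were dissociated, and GFP-positive cells were collected by FACS and lysed for SMART-seq libraries, which are made from polyadenylated RNA with whole-transcript coverage and without strand information or molecular identifiers. Levels within this genotype are described, with no comparison with the mutant and no test between groups.

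The libraries held between 19855011 and 69997102 reads assigned to features, and replicate 1 was the deepest. Each sample title carries a different label in the form of a month and day, read here as a collection date. Between pairs of samples, Pearson correlations of log2 CPM (read counts scaled to library size after TMM normalization) across 7520 genes ranged from 0.969 to 0.983, with genes that are not independent of each other. Replicate 1 was left out of the study's own analysis and has no TPM value from the authors, so values from the authors' TPM rest on replicates 2 to 5. The paper gives modestly higher technical variability in a principal component analysis as the reason for removing samples. Means over 5 samples below include replicate 1, and patterns set by replicate 1 rest on that single library.

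The counts bear on which genes can be seen at all. Of 4135 features whose whole span lay inside the spans of other features, although their exons touched no other exon, all 4135 held no read in any sample. Few reads, between 0.301% and 0.463% per sample, fell on no feature, and between 8.91% and 9.85% were ambiguous. The counts therefore behaved as reads counted over whole gene spans, introns included, with reads in overlapping spans given to neither gene. Among protein-coding genes in the annotation, 1973 had no span of their own, and 1972 of these had no read. Such genes are listed at 0 here whatever their expression, and nothing can be read from those zeros. They include VAChT, the vesicular acetylcholine transporter gene, which shares its locus with ChAT, and the synaptic gene Syx1A.

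Detection means at least 1 CPM in each of the 5 samples. By this measure 6826 of 23882 features were detected, among them 6640 of 13902 protein-coding genes. Of the 11929 protein-coding genes with some span of their own, 55.7% were detected and 306 had no read in any sample. Levels spread widely, and 5184 features reached 10 CPM, 1885 reached 100 CPM and 120 reached 1000 CPM in every sample. Reads were not dominated by a few genes. The 10 most read genes took 6.78% ± 0.299 of the reads (SD, n = 5), the 100 most read took 24.8% ± 0.708, and 454 ± 19.4 genes held 50% of the reads. Protein-coding genes took 98.7% ± 0.0783 of the reads.

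To compare levels between genes, reads must be divided by length, and the choice of length mattered. The authors' TPM divided by the gene span, which was so within 0.01 on the log2 scale for 99.8% of 9538 features. A TPM over summed exon length was computed as well. If most reads are exonic, the exon-length TPM is the closer scale, although intron reads raise it for genes with long introns. Exon and intron reads are not separated in the tables, so their shares were not tested, and the authors' value is added below where it changes which gene of a group is highest. The median level of detected features was 54.4 by exon-length TPM and 54.0 by the authors' TPM.

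The most abundant transcript by the authors' TPM was 7B2, which encodes the chaperone of a prohormone convertase. Gene 7B2 (FBgn0041707) lies on 3R from 5376780 to 5377975 on the forward strand of BDGP6. Its authors' TPM was 8019, 8939, 8292 and 9470 in replicates 2 to 5. All 4 values were above those of the second gene, alphaTub84B (alpha-tubulin), at 6704, 6249, 6705 and 6708. The small heat shock gene Hsp26 followed with 9329, 5358, 6021 and 5496. Replicate 2 was high for Hsp26 and the other 3 samples fell close together, so the orders of Hsp26 against both 7B2 and alphaTub84B differed between samples.

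The other genes among the 20 highest belonged mainly to a few functions. Mitochondrial energy supply gave blw (ATP synthase subunit alpha, authors' TPM 4358), mt:CoII (cytochrome oxidase subunit II, 4092), ATPsynF (4000), ATPsynC (3834), COX8 (3465), levy (a cytochrome oxidase subunit, 3449) and the phosphate carrier Mpcp2 (3389). Glycolysis gave Gapdh2, at 4003 by the authors' TPM. Protein folding gave Hsp83, the fly Hsp90, at 4069, Fkbp12, an FK506-binding prolyl isomerase, at 4542, and jdp, a J-domain protein, at 3890. Calcium and kinase signaling gave CanB, the regulatory subunit of calcineurin, at 3921 and 14-3-3zeta at 3617. The list also held the histone His4r (3784), the ribosomal protein gene RpL15 (3484), CG11191 (3435) and prt (portabella, a transporter related to vesicular transporters that is known from the mushroom body), at 3625. Among these, 14-3-3zeta (leonardo) is also known in flies for its role in mushroom body learning.

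**Figure D1:**
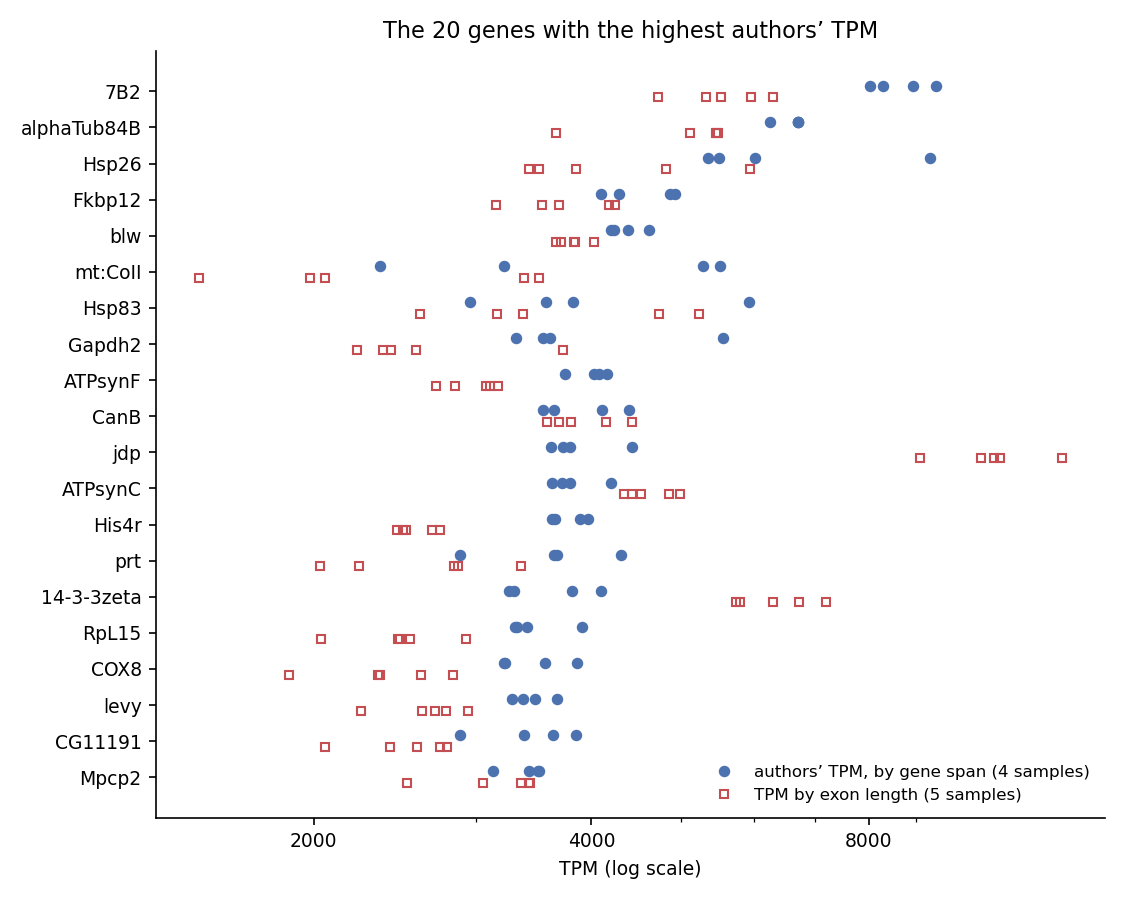
TPM (log axis) of the 20 genes with the highest authors' TPM, 1 point per sample, as filled circles for the authors' TPM over gene span (4 samples) and open squares for the TPM over exon length (5 samples). The gene 7B2 leads by span, at 8019 to 9470, and jdp lies to the right of all others by exon length, at 9096 to 12945.

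By exon length the order was different, and 12 of the 20 genes were shared. The highest was jdp (FBgn0027654, 3R, 30517059 to 30527037, reverse strand), with exon-length TPM of 9096, 12945, 10595, 10928 and 11088 in replicates 1 to 5. Its lowest sample was above the highest sample of 14-3-3zeta, which had 6297, 7194, 5742, 6716 and 5792. The gene 7B2 was next at 5564 ± 603, then Atpalpha, the catalytic subunit of the sodium pump, at 5119 ± 138. Below the first place the order was loose: in 18 of the 19 pairs of neighbours among the 20 highest, the ranges of the samples overlapped. Genes that entered the list on this scale included Cyt-c-p (cytochrome c), eEF1alpha2 (a translation elongation factor), Appl (the fly relative of amyloid precursor protein), Fas1 (an adhesion protein) and sNPF (short neuropeptide F). In reads alone Atpalpha was the most read gene, at 12034, 13134, 12665, 12100.3 and 13001 CPM, which are close together.

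Genes with long introns were those whose place depended most on the scale. The exon-length TPM was at least 5-fold above the authors' TPM for 372 detected genes and at least 10-fold above for 92. The largest ratio was that of Myo81F, 193, followed by dpr21 (80.1), CG17684, Pzl and Snap25 (63.0). Among genes of neurons, some of those with the highest exon-length TPM moved far. The neuropeptide gene sNPF was rank 15 by exon-length TPM (3402 ± 547) and rank 445 by the authors' TPM (427 in the mean of 4 samples). Snap25, a core protein of vesicle fusion, had 434 ± 75.7 by exon length and 6.57 by the authors' TPM. The cell-surface gene dpr21 had 846 ± 122 by exon length and 10.2 by the authors' TPM. For dnc, the cAMP phosphodiesterase, the values were 122 ± 7.14 and 18.9.

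**Figure D2:**
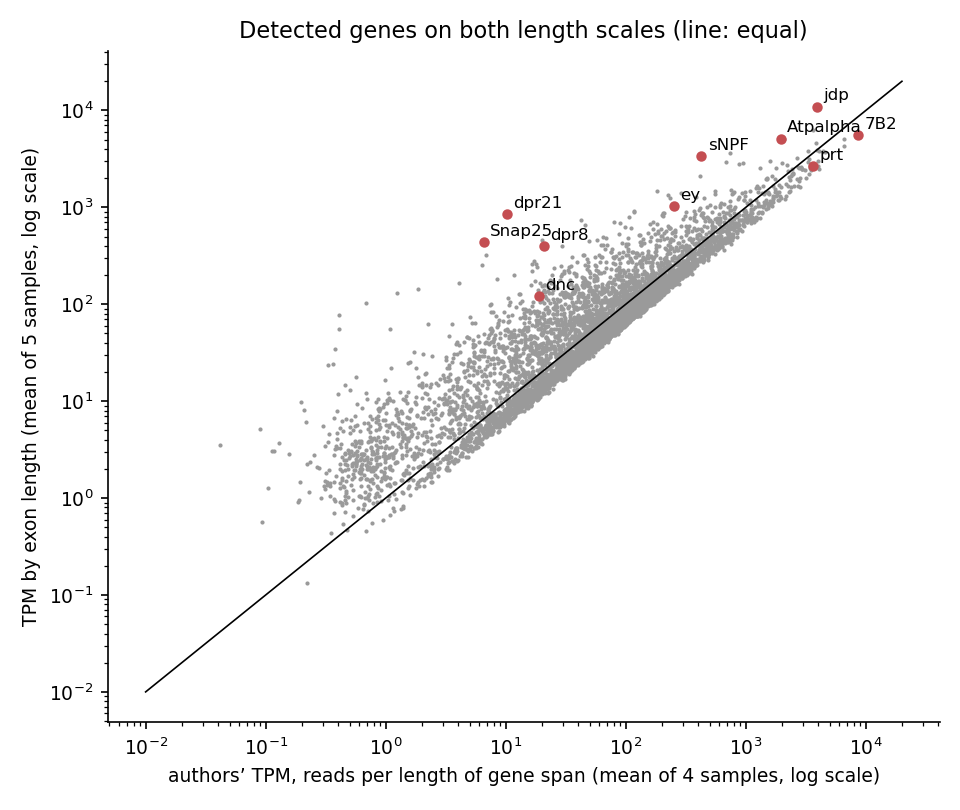
Mean exon-length TPM (vertical, log axis) against the authors' mean TPM over gene span (horizontal, log axis) for detected genes, with a line where both are equal. Most genes lie just below the line, with a median ratio of 0.812, and genes such as dpr21, Snap25, sNPF and dnc lie far above it.

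Of 16 markers on a list for KCs, all 16 were detected in every sample. The list was chosen with earlier results of these data known, and the cells were sorted by a Mef2 driver. Detection therefore could not test the KC label. The summed exon-length TPM of the 16 markers was 16992, 15158, 15866, 15612 and 16415 in replicates 1 to 5, a narrow range. By exon length the 4 highest were sNPF, the cAMP-dependent kinase regulatory subunit Pka-R2 (2908 ± 180), prt (2667 ± 532) and the kinase catalytic subunit Pka-C1 (2568 ± 368). The ranges of neighbours among these 4 overlapped. By the authors' TPM prt was first, at 3625, followed by Pka-C1 at 1303, Pka-R2 at 683 and sNPF at 427. Most KCs are known to express sNPF. In CPM, sNPF was 3776, 3221, 2750.2, 2810 and 2738, highest in replicate 1. The gene prt ran from 1578 CPM in replicate 1 to 2739 in replicate 5. The transcription factors of the mushroom body came next by exon length: the Pax6 homologs ey (1027 ± 41.9) and toy (564 ± 47.1), dac (618 ± 100) and Mef2 (412 ± 42.5), the gene whose enhancer drives the reporter line. By CPM, ey was nearly level, at 1383, 1414, 1409, 1327 and 1496. Below these by exon length were the transcription factor ab (273 ± 32.8) and the adhesion gene Fas2 (217 ± 12.3), beside dopamine receptor and cAMP genes described below. By exon length the lowest marker was mamo, a zinc-finger regulator of KC identity, at 85.9 ± 8.67, above the median of 54.4 for detected features. By the authors' TPM, dnc (18.9), mamo (26.9), Fas2 (33.4) and rut (52.9) were below that scale's median of 54.0.

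Transcripts of other cell types were present at lower levels. Glia had the highest mean sum of those lists by exon length, but in replicate 1 the lists of other transmitter neurons (712) and of fat body and blood cells (535) were above it, and by the authors' TPM other transmitter neurons summed to 772 and glia to 765. All 9 glial markers with a span of their own were detected, with a summed exon-length TPM of 476, 1322, 1631, 1512 and 930.3. Replicate 1 was lowest and replicate 5 next, so that the sum of the KC markers was 35.7 times the glial sum in replicate 1 and 9.73 to 17.6 times in the others. Gs2 (glutamine synthetase) had 168, 548, 653, 602 and 392 CPM. Eaat1, the glial glutamate transporter, had 6.18, 90.8, 110, 115 and 81.6 CPM, at least 13.2-fold higher in each other sample than in replicate 1. The sodium pump subunit nrv2 was second of the glial list by exon length, at 386 ± 129. The glial transcription factor repo had 7.20, 19.4, 25.5, 26.1 and 17.8 CPM. The lower members axo (17.6 ± 8.07) and wrapper (11.0 ± 7.61) passed 10 by exon-length TPM. Of the 9 markers, 8 were lowest in replicate 1, beside 23.5% of all detected features. In bulk samples fewer cells of a type and less RNA per cell cannot be told apart.

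Markers of further cell types were mostly below detection. Of 14 photoreceptor and eye genes with a span of their own, 2 were detected, norpA (phospholipase C, 49.1 ± 12.9 by exon length) and trp (1.78 ± 1.43). Of 10 muscle genes 2 were detected, of 10 neuroblast and cell cycle genes 1, of 8 tracheal and cuticle genes 1 and of 12 antimicrobial peptide genes none. Among 14 genes of fat body and blood cells, 4 were detected, and Pxn (peroxidasin) made up 88.6% ± 5.05 of their summed exon-length TPM. All 4 detected genes were lowest in replicate 1. Pxn had 1072, 1079, 1224, 1111 and 1358 CPM, little below replicate 2 in replicate 1. It was highest in replicate 5, where the glial sum was next to lowest. The blood cell genes Hml and NimC1 had at most 3.40 and 0.157 CPM, while the collagen gene Col4a1 had 23.6, 53.5, 120, 121 and 55.2 CPM and was lowest in replicate 1 like the glial genes. The collagen gene vkg (19.4 ± 10.3 by exon length) and the yolk protein gene Yp3 (10.5 ± 5.63) were the other members detected.

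**Figure D3:**
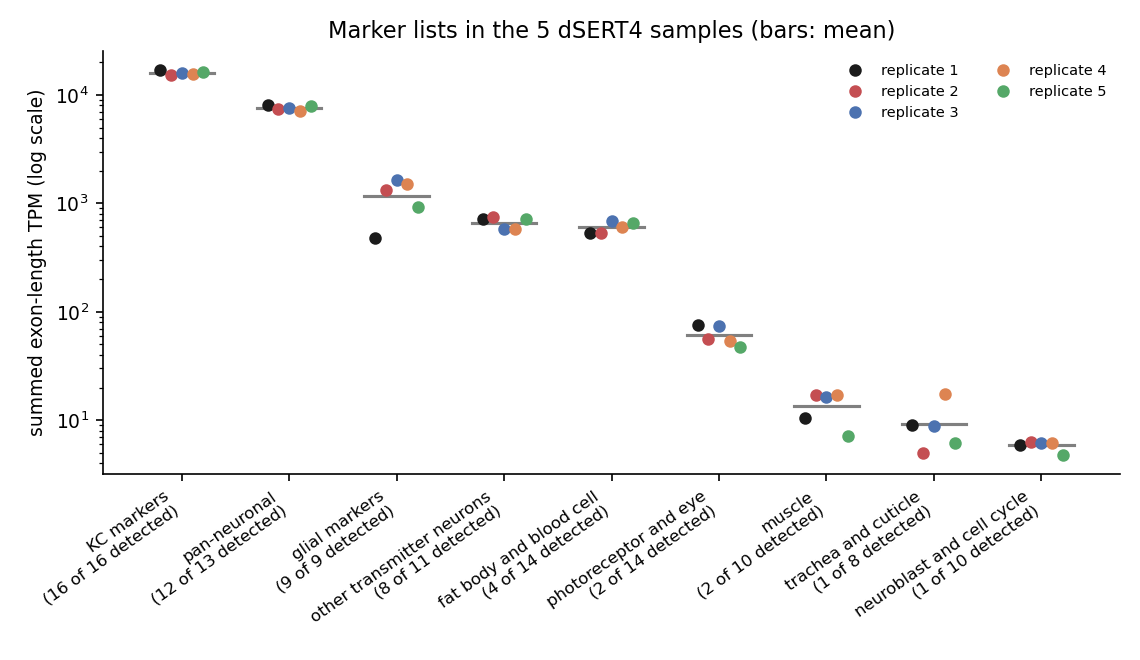
Summed exon-length TPM (log axis) of 9 marker lists in each of the 5 samples, with bars at the mean. KC markers sit near 16009 in all samples, glial markers range from 476 in replicate 1 to 1631 in replicate 3, and muscle, tracheal and neuroblast lists stay below 20.

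Among general neuronal genes, 12 of 13 were detected. Appl was the highest by exon-length TPM (3635 ± 286), followed by the synaptobrevin gene nSyb (1646 ± 172) and the calcium sensor Syt1 (764 ± 81.7). By the authors' TPM nSyb was first, at 1399 beside 736 for Appl. The remaining gene, elav, had 0.243 CPM at most, but only 1% of its span is its own, so this pan-neuronal gene could not be counted. The machinery of synaptic vesicles was fully present: all 19 countable genes were detected, led by Rop (the fly Munc18, 1647 ± 157), nSyb and the small GTPase Rab3 (1309 ± 53.8). By reads, the complexin gene cpx was the highest of this list, at 4492, 4054, 4022, 4478 and 4418 CPM. The ranges of neighbours overlapped in 15 of 18 pairs along this list.

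KCs release acetylcholine, and the countable genes of that pathway were detected. ChAT, which makes acetylcholine, had 264, 296, 245, 257 and 322 CPM, with 37% of its span its own. The choline transporter ChT, with 23.6% of its span its own, had 55.7, 99.8, 30.9, 37.6 and 35.8 CPM, highest in replicate 2, and the acetylcholinesterase gene Ace had 128, 109, 166, 155 and 120. Genes of other transmitters were low with some exceptions. Ddc (dopa decarboxylase) reached 448 ± 66.2 by exon-length TPM and VGAT (the vesicular GABA transporter) 149 ± 21.1, the dopamine transporter gene DAT 35.6 ± 5.64, while Gad1, which makes GABA, had 7.51 ± 2.78 and VGlut 1.54 ± 0.760. Tyrosine hydroxylase, ple, was uneven: 1.09, 57.8, 2.58, 2.48 and 11.5 CPM, so that replicate 2 was at least 5-fold above each other sample. Transcripts of SerT, the serotonin transporter, were at 2.61, 1.07, 2.15, 3.42 and 0.919 CPM, below detection by the rule in 1 sample.

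A single gene carried most transcripts of the countable neuropeptide genes. By the authors' TPM this gene, sNPF, was at 427 beside a list sum of 490. Of 20 countable neuropeptide genes, among 26 listed, 5 were detected, and sNPF made up 96.8% ± 0.755 of the summed exon-length TPM. Proctolin (Proc, 46.4 ± 4.80) and Nplp1 (22.9 ± 6.79) were next, and Dh31 (6.38 ± 2.83) and Dh44 (2.90 ± 1.33) were the others. Pdf, a peptide of clock neurons, was at 4.56 CPM in replicate 3 and at most 0.484 CPM elsewhere. Of 32 receptors for peptides and related hormones 21 were detected, beside 55.7% of all protein-coding genes with a span of their own, and the median over the 32 was 4.12 by exon-length TPM. Lgr1 (179 ± 29.2 by exon length), the CRF-like receptor Dh44-R1 (141 ± 39.0) and the cholecystokinin-like receptor CCKLR-17D3 (137 ± 28.1) had the highest levels, and their ranges overlapped.

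Receptors for the amines that modulate KCs were detected in every class. All 4 dopamine receptor genes were detected. By exon-length TPM Dop1R2, linked in flies to forgetting, was at 681 ± 70.4, DopEcR, which also binds ecdysone, at 512 ± 65.0, Dop1R1, the receptor needed for learning, at 194 ± 35.2 and Dop2R at 132 ± 36.5. DopEcR was above Dop1R1 in all samples without overlap, while Dop1R2 and DopEcR overlapped, as did Dop1R1 and Dop2R. The authors' TPM placed DopEcR first, at 256 against 180 for Dop1R2. Of 8 octopamine and tyramine receptor genes all 8 were detected, led by Octbeta1R (450 ± 47.4) and Oamb (264 ± 18.8), whose ranges did not overlap, and Octbeta3R (53.6 ± 8.42) was next.

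Serotonin receptors fell into a high and a low set. The inhibitory receptors 5-HT1A and 5-HT1B had exon-length TPM of 323 ± 40.5 and 193 ± 28.7. In CPM, 5-HT1A had 671, 669, 542, 507 and 590.0, and 5-HT1B had 275, 340.3, 232, 251 and 332. The authors' TPM gave the reverse order, 44.4 for 5-HT1A and 118 for 5-HT1B, since 5-HT1A has the longer introns. The other 3 were lower on both scales, with exon-length TPM of 9.55 ± 4.19 for 5-HT2B, 7.21 ± 1.91 for 5-HT2A and 5.46 ± 1.71 for 5-HT7, and their ranges overlapped. All 3 passed detection, with 5-HT7 lowest in replicate 1 at 4.07 CPM and 5-HT2B highest there at 36.5 CPM.

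Levels of the nicotinic subunits and of the GABA and glutamate receptors covered a wide range within each class. Of 9 countable nicotinic acetylcholine receptor subunits all 9 were detected, and nAChRbeta1 made up 50.9% ± 2.12 of their summed exon-length TPM. It stood at 1269 ± 93.7, with nAChRalpha2 (514 ± 113) and nAChRbeta2 (240 ± 41.5) below it and without overlap between these 3. The lowest subunit was nAChRalpha3, at 3.81 ± 0.860. Both countable muscarinic receptors were detected, mAChR-A at 255 ± 10.5 and mAChR-B at 210 ± 30.5, and their ranges overlapped. For GABA and glutamate, 11 of 13 were detected, and the highest by exon length were the GABA-A receptor subunit Rdl (510 ± 48.3), the GABA-B subunit GABA-B-R2 (416 ± 41.6) and the AMPA-type subunit GluRIA (314 ± 49.0). By the authors' TPM GABA-B-R2 was first, at 475 beside 195 for Rdl.

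**Figure D4:**
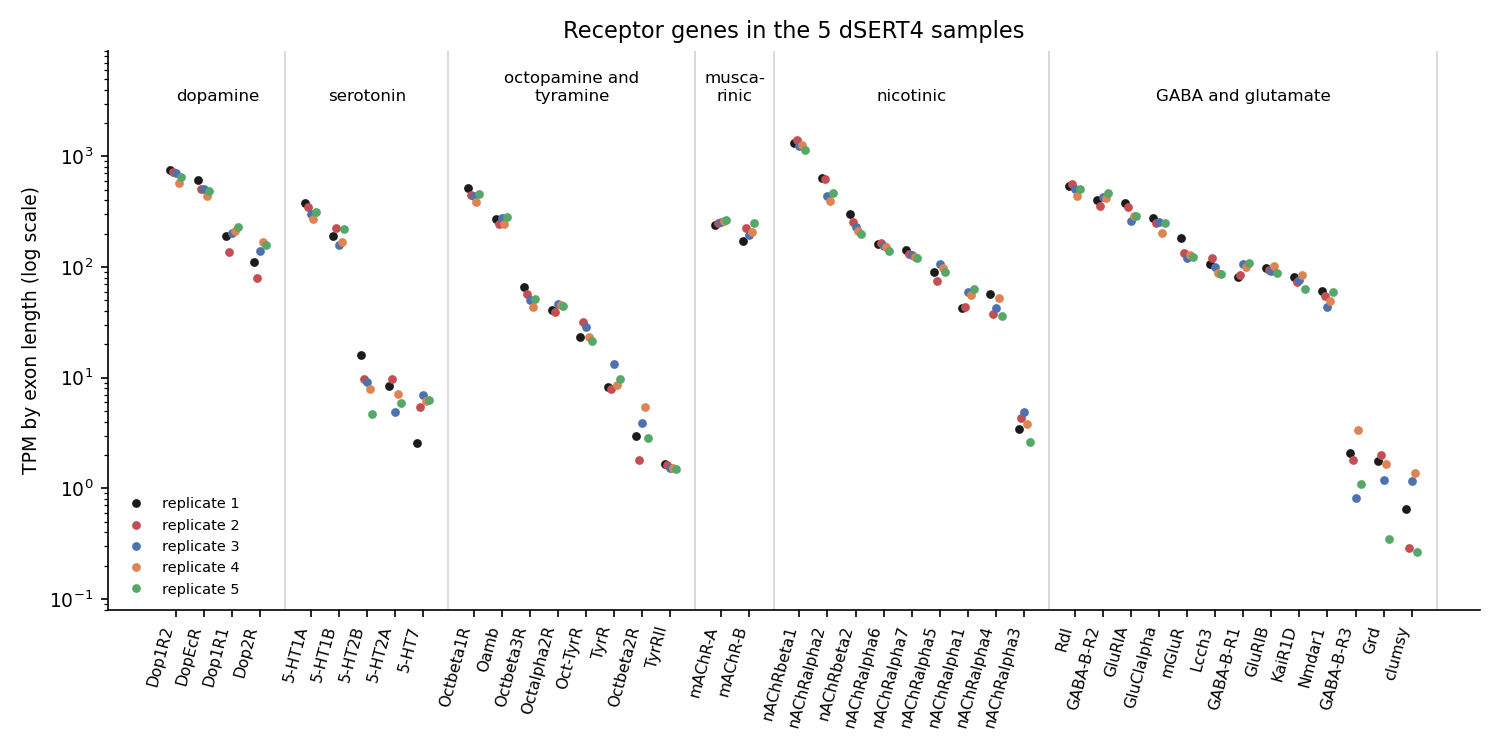
Exon-length TPM (log axis) of 41 receptor genes in 6 classes, 1 point per sample and gene, ordered by mean within each class. Within most classes the first genes lie above 100 TPM and the last below 10, as for 5-HT1A at 323 against 5-HT7 at 5.46. In those classes the points of 1 gene lie much closer together than the first and last genes do. Ranges of neighbours overlap in 8 of 12 GABA and glutamate pairs and in 2 of 8 nicotinic pairs.

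Ion channel genes followed with 16 of 17 potassium channel genes detected and 12 of 13 sodium and calcium channel genes. The highest potassium channels by exon length were Elk (409 ± 25.1) and the calcium-activated channel slo (348 ± 20.2), above qvr, a regulator of Shaker channels (227 ± 23.2), Shab (201 ± 23.9) and Shaker (Sh, 111 ± 9.51). By the authors' TPM qvr was first, at 190.5 beside 112 for slo and 64.7 for Elk. Among the sodium and calcium group the sodium leak channel partner unc79 was highest (311 ± 18.5), followed by the calcium channel subunits stj (204 ± 26.4) and cac (149 ± 10.8), while the voltage-gated sodium channel para was at 55.8 ± 2.17. In CPM, para lay between 313 and 366 in all samples.

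Genes of cAMP and memory signaling ranged from very high to low levels. Of 16 countable genes on the list 15 were detected, with a summed exon-length TPM of 15031 ± 719, of which 14-3-3zeta gave the largest part, and a median of 122. The authors' TPM summed to 7021. By exon length, 14-3-3zeta (6348 ± 619), Pka-R2, Pka-C1 and Pka-R1 (1390 ± 83.5) stood first, followed by CaMKII (571 ± 80.9). The calcium-responsive adenylyl cyclase gene rut was at 130 ± 28.4 and the phosphodiesterase gene dnc at 122 ± 7.14, with overlapping ranges, while the factor CrebB was at 6.93 ± 2.36. Another 3 genes were not countable: orb2 has 1% of its span to itself, and amn and rg have none.

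Among regulators of KC identity and timing, 18 of 19 countable genes were detected. Besides the markers above, pros (268 ± 21.7 by exon length) and dati (195 ± 11.0) were the highest. Genes of the temporal program that orders KC birth were still present on the day of eclosion, with Imp at 48.8 ± 6.03, Syp at 34.4 ± 2.54 and chinmo at 34.1 ± 5.41, the ranges of Syp and chinmo overlapping. The ecdysone receptor EcR was at 53.2 ± 9.63 and the late steroid-response gene Eip93F at 47.3 ± 5.12, while lin-28 reached 2.28 CPM at most. Of 9 clock genes 8 were detected. By exon length cyc (108 ± 9.68) and cwo (66.7 ± 16.3) were above the median of detected features, while Pdp1 (46.6 ± 7.48), per (23.7 ± 7.13) and tim (4.71 ± 0.757) were below it.

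Cell-surface genes of wiring were detected broadly, beside 55.7% of all protein-coding genes with a span of their own. The median exon-length TPM was 25.8 over the dpr and DIP list and 12.6 over the beat and side list, beside 54.4 for detected features. Their median span was 6.96 and 9.91 times the exon length, beside 1.27 for detected genes. Detection has no length correction, and the part of span length in these counts was not tested. Of 32 dpr and DIP genes, immunoglobulin proteins that bind each other across cells, 27 were detected, led by dpr12 (911 ± 101 by exon length), dpr21 and dpr9 (433 ± 57.0). On the authors' scale dpr19 led instead, at 417. All 21 countable beat and side genes were detected, and the highest by exon length were beat-IV (219 ± 26.1), side-II (179 ± 14.2) and side-VI (166 ± 14.6). By the authors' TPM side-VII was first, at 154 beside 49.8 for beat-IV. Chemosensory receptors formed the opposite case. Of 49 countable gustatory and 24 pickpocket channel genes none was detected, and of 47 odorant receptors 2 were, Or43b (23.3 ± 6.60) and Or85f (9.09 ± 3.79). Among 56 ionotropic receptors 3 were detected, and Ir68a, a receptor known from moisture sensing, stood apart at 180 ± 22.8, with all 5 samples between 146 and 202.

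Genes of energy supply and protein synthesis had high summed levels. The 62 detected nuclear genes of the respiratory chain summed, with the rest of their list, to 76259 ± 2687 by exon-length TPM, with Cyt-c-p (5029 ± 595) and ATPsynC (4626 ± 282) highest by exon length and ATPsynF (4000) first by the authors' TPM. All 12 glycolytic genes were detected, and Gapdh2, PyK and Pglym78 led. Ldh, lactate dehydrogenase, was the lowest of them at 13.8 ± 10.4. Transcripts of the mitochondrial genome summed to 5391, 10794, 7629.8, 11431 and 5424 by exon length, lowest in replicates 1 and 5. Cytosolic ribosomal protein genes, 82 of 91 detected, summed to 48113, 52700, 67989, 71070.2 and 72617, and 68 of the 82 were lowest in replicate 1. Of the 17 vacuolar ATPase genes detected, Vha13 was the highest by exon length, at 2053 ± 221, beside VhaAC45RP at 1889 ± 202 and Vha36-1 at 1476 ± 76.7. By the authors' TPM VhaAC45RP was first, at 2767 beside 2308 for Vha13.

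Families of general cell machinery were steady between samples and differed in level. All 71 countable mitochondrial ribosomal protein genes were detected, and their median exon-length TPM was 110.0, beside 621 for the cytosolic ribosomal list. The sum of the mitochondrial ribosomal list stayed between 8340 and 9130 and was not lowest in replicate 1, unlike that of the cytosolic list. Of 44 countable proteasome genes 30 were detected, with Prosbeta5 highest at 307 ± 31.8 and a sum between 5435 and 5660. Among Rab GTPases, the switches of membrane traffic, 28 of 32 countable genes were detected. Rab27, a Rab of regulated secretion, was the highest by exon length (2088 ± 213), above Rab3 and Rab2 (555 ± 70.9). Of the histone genes, the polyadenylated replacement genes His4r (2581 ± 125), His3.3A (390.3 ± 16.8) and His2Av (379 ± 32.7) were the highest by exon length. The replication-dependent histone genes are repeated copies whose transcripts mostly lack poly(A), and their levels are uncertain in counts of uniquely mapped reads from poly(A) libraries.

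By reads, the cytoskeleton and translation list showed the same low replicate as the ribosomal genes. Of its 17 detected members, 11 were lowest in replicate 1, among them the tubulin gene alphaTub84B at 2285 CPM beside 3230.1 to 3631 in the others. The sum of this list by exon length was 18533 in replicate 1 and 21932 to 23552 in the others.

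Stress genes were abundant in sorted cells, with all 19 countable genes detected. Hsp26 (4308 ± 1068), Hsp83 (3820 ± 1110) and the constitutive chaperone Hsc70-4 (2628 ± 149.9) were the first by exon length. In CPM, Hsp68 had 594, 899, 379.5, 449 and 341, highest in replicate 2. The activity-regulated genes sr and Hr38 were at 74.3 ± 20.7 and 69.5 ± 22.0. No unsorted sample is among those described, so the part of dissociation and sorting in these levels was not tested. The near-identical Hsp70 copies share reads that map to several places, and their levels are uncertain.

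Few noncoding RNAs reached high levels. Of 3274 ncRNA features 1746 had a span of their own, and 93 were detected, 5.33% of those with such a span. The ncRNAs took 0.700% ± 0.0675 of the reads. One locus, lncRNA:CR42862 on 3L from 224106 to 230964, had 3622, 3462, 3040, 3007 and 3229 CPM and was the 15th most read feature. The heat shock RNA lncRNA:Hsromega had 1960 ± 470.1 CPM, lncRNA:mimi 443 ± 73.2, hpRNA:CR18854 157 ± 24.5 and lncRNA:CR45054 118 ± 30.2. Counts over spans may hold reads of genes that the annotation lacks. Of 5569 transposable element insertions 2548 had a span of their own, and 38 were detected, 1.49% of those with such a span. The highest was R2{}RR48361 at 53.4 ± 14.1 CPM, followed by Cr1a{}2411 at 22.8 ± 5.16 and rover{}243 at 17.3 ± 10.1. Cr1a{}6093 had 10.2 ± 1.78 CPM and Rt1b{}161 8.26 ± 2.62. Only uniquely mapped reads were counted, so repeats with many copies are underrepresented.

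The share of genes detected differed between chromosomes, a description without a test. Of protein-coding genes with a span of their own, 91.3% of 80 on chromosome 4 were detected, 63.8% of 1788 on X, and 50.7% to 55.1% on the arms of chromosomes 2 and 3. Detected genes had a median span of 10463 bp on chromosome 4 and 3968.5 bp on X, beside 3228.5 to 3382 bp on the arms of chromosomes 2 and 3. Detection has no length correction, and the part of span length in these shares was not tested. The detected genes of chromosome 4 had a median exon-length TPM of 98.7, beside 48.7 to 59.3 on the other arms named. On Y, 3 of 23 genes passed in these female samples, with ORY at 29.6 CPM, kl-5 at 4.59 and Ppr-Y at 2.24, and Y genes took 0.00409% of the reads. The Y genes span long introns that hold repeats, and whether these reads came from Y transcripts was not tested. The dosage compensation gene msl-2 was at 40.2 ± 7.79 by exon length and the male-enriched RNAs lncRNA:roX1 and lncRNA:roX2 at 3.60 ± 2.17 and 0.340 ± 0.264.

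Between samples, most genes varied little. The median SD of log2 CPM was 0.25 over 7520 genes, and the median gene-wise biological coefficient of variation (BCV, the relative spread beyond read counting) was 0.194. It fell with level, from a median of 0.423 at 1 to 10 CPM to 0.193 at 10 to 100, 0.136 at 100 to 1000 and 0.121 above. Of 3319 genes with a mean of at least 50 CPM, 77.2% had their highest sample within 1.5-fold of the lowest and 95.8% within 2-fold. The steadiest genes by SD of log2 CPM were Sec22, a vesicle trafficking protein, at 0.02, followed by drpr, Gfrl, Cds, VhaAC45, RanBPM, the kinesin unc-104, Fer1HCH, mRpS10 and Fsn.

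Only 15 of these 3319 genes varied over 4-fold, and 14 of the 15 were lowest in replicate 1. Of the same 15, 11 were highest in replicate 4, 3 in replicate 3 and 1 in replicate 2. The largest SDs of log2 CPM were those of Eaat1 (1.79), bumpel (a sodium-coupled transporter, 1.51) and the GABA transporter Gat (1.37). Gat had 14.5, 111, 142, 138 and 79.3 CPM and bumpel 12.1, 161, 91.0, 109 and 34.6, so replicate 1 was lowest and replicate 5 second lowest in both. CG31705, mfas, Col4a1, Inx2 (an innexin of gap junctions), Tsp5D, CG7084, Sod3 and CG1552 followed with replicate 1 again lowest. The odorant-binding protein gene Obp44a had 70.2, 175, 196, 314 and 232 CPM. Other genes of the 15 with the largest SD had other patterns. FoxK had 23.7, 30.3, 57.8, 125 and 99.5 CPM, mt:lrRNA was highest in replicate 4 at 180 CPM, and Syngr (synaptogyrin) was also highest there, at 133 CPM beside 27.9 to 42.7 in the others. Whether the share of glial RNA set the spread of these genes was not tested.

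**Figure D5:**
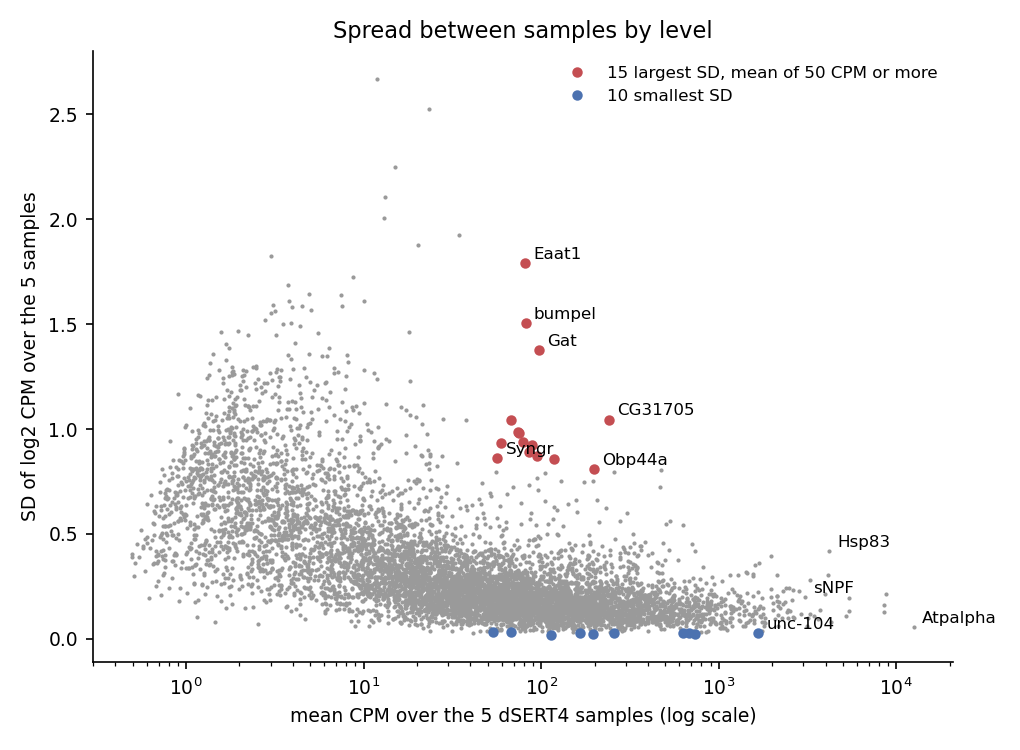
SD of log2 CPM over the 5 samples (vertical) against mean CPM (horizontal, log axis), 1 point per gene kept by the expression filter. The 15 largest SDs among genes with a mean of 50 CPM or more are marked, with Eaat1 at 1.79, and abundant genes such as Atpalpha lie close to the bottom.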

How the data were processed

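KCs of the 5 dSERT4 samples were measured by SMART-seq. The authors aligned reads with STAR to BDGP6, named dm6 in the submitters' processing notes, and deposited counts of uniquely mapped reads per feature. The annotation release and counting settings are not given in the sources used here. The unstranded count column was used, without its 4 summary lines. The deposited table of the authors also holds their TPM for 4 of these samples and log2 fold changes and p-values between genotypes, which were not used. Depth was 19855011 to 69997102 reads, so that 3 counts equal 0.151 to 0.0429 CPM (counting error only). TMM factors, CPM, the gene filter (filterByExpr) and BCV came from edgeR 4.0.16 in R 4.3.3, with a prior count of 2 for log2 CPM. Spans, exons and positions came from Ensembl release 115 (BDGP6.54), which holds 23801 of the 23882 features. A gene's own span is the part that no other feature's span covers on either strand. No 2 libraries were duplicates.

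Values are mean ± SD over 5 samples, or over 4 for the authors' TPM. No test between groups was run, since 1 genotype gives no comparison. A Dixon test was used only to flag single samples. Nothing says that samples of 1 genotype shared flies, and each has its own label read as a date, so the spread holds collection and library together. Named genes were the 20 with the highest authors' TPM, up to 3 of the highest of each list or family (by exon-length TPM; lists mostly under detection are given by counts), members of the marker lists at 10 TPM or more, the 15 most and 10 least variable genes from 50 CPM, and the 5 most read noncoding and repeat features, and others were named for their roles. Some genes that this rule covers are not reported here. The members and lists were chosen with earlier results of these data known. Scripts were tested on simulated data. The alternatives covered detection level, depth, normalization, count column, filter, prior count, length scale and leaving out each sample.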

Additional observations from a re-analysis of the deposited data

Results flagged for a closer look

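In a Dixon test at the 95% level on 120 values (list sums, class shares and named genes), 13 had 1 sample far from the other 4. The values overlap, and some genes were picked by their spread in these same samples. The rate of 1 in 20 for a single value therefore cannot be set against this count. Replicate 1 was high for the summed exon-length TPM of dpr and DIP genes (5409, others 4553 to 4696), for that of the synaptic vesicle list (13211, others 11669 to 11931) and for Cds (654 CPM, others 622 to 631). Replicate 2 was high for Gapdh2 (2038 CPM, others 1158 to 1328) and low for the summed exon-length TPM of microRNA genes (79.2, others 117 to 129), which is almost wholly mir-317. Replicate 3 was high for dnc, at 798 CPM beside 718 to 740.2.

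Replicate 4 was low for the summed exon-length TPM of neuropeptide receptors (876, others 1014 to 1045). It was high for mt:lrRNA (180 CPM, others 30.8 to 69.2) and Syngr (133 CPM, others 27.9 to 42.7). Replicate 5 was high for the summed exon-length TPM of rRNA features (1557, others 201 to 523), where 28SrRNA-Psi:CR45853 alone gave 1452, and for blw (3404 CPM, others 3073 to 3131). It was low for the neuroblast and cell cycle list (4.78, others 5.90 to 6.35) and for the share of reads on transposable elements (0.0321%, others 0.0442% to 0.0453%).

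The strand columns, used in no comparison above, hold reads for 1078 protein-coding genes that have no unstranded read in any sample and more than 3 reads there. Of these, 1038 have no span of their own. The highest were Ank2 with 295096 strand reads over the 5 samples, vig with 194772, emc with 113348 and UQCR-14 with 67348. Since the libraries carry no strand information, a read in 2 overlapping genes enters both, and these counts do not show which gene the reads came from.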

How the results depend on the processing

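Of 73 values recomputed under another setting, 64 stayed within a set limit. The limit was 1.5-fold for counts and the SD between samples for shares of reads. For the median SD and the BCV it was an error taken from the leave-one-out values themselves. Leaving out 1 of 5 samples cannot move a mean share past that SD, so those values could not fail. With both strand columns summed, the share of the 100 most read genes was 23.3%, that of protein-coding genes 97.4%, that of ncRNA 1.96% and that of transposable elements 0.0843%. The median SD of log2 CPM was 0.51 with no filter and 0.20 for genes with a mean of at least 10 CPM, and the common BCV, 0.264, rose to 0.558 with no filter. Of the 20 genes highest by the authors' TPM, 6 were among the 20 highest by CPM and, in an alternative chosen after seeing the data, 12 by exon-length TPM. Also chosen after seeing the data, the KC marker sum was 7373 by the authors' TPM. Features detected ranged from 6812 (libraries thinned to the shallowest) to 8734 (1 CPM in any 1 sample).

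Leaving out each sample in turn gave 6848 to 6949 detected features, 24.5% to 24.9% of reads on the 100 most read genes and 449 to 462 genes that hold 50% of the reads. The median SD was then 0.23 to 0.26, the common BCV 0.241 to 0.286 and the median gene-wise BCV 0.183 to 0.209. The class shares ranged from 98.6% to 98.7% for protein-coding genes, 0.677% to 0.723% for ncRNA, 0.238% to 0.290% for the mitochondrial genome and 0.0413% to 0.0446% for transposable elements, and 18 to 19 of the 20 genes highest by the authors' TPM remained when each of replicates 2 to 5 was left out, since replicate 1 has no such value. The KC marker sum was 15763 to 16221 and the glial sum 1060 to 1349, with all 16 and all 9 markers detected. No paired analysis was possible because 1 genotype was described and no test between groups was run.

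Depth limits genes near 1 CPM, and the median BCV was highest, at 0.423, below 10 CPM. Genes inside other genes' spans, or with little span of their own, could not be measured, and 245 of the detected features had under 50% of their span to themselves. Exon and intron reads were not separated, so orders between genes hold only where both length scales give them. Mean levels over KC classes do not show which class holds a transcript.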
